A study of Homo sapiens with 9 samples.

Results

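The D cyclins, their kinases and the retinoblastoma family form the switch that lets a cell leave the first gap phase and copy its DNA. The 10 genes described here are CCND1, CCND2 and CCND3, which encode cyclins D1, D2 and D3, the kinase genes CDK4 and CDK6, the inhibitor genes CDKN1B and CDKN2A, and the pocket protein genes RB1, RBL1 and RBL2. They were taken by symbol from a table of 27315 gene entries, in which all 10 were found. Of these, 8 had a mean level high enough to enter the fit across 13165 genes, while CCND2 and RB1 lay under that limit. The set was chosen by pathway membership around CCND1, whose deposited values were already known to be higher with both BBOX1 hairpins than in the control, so values of these genes against the control are given as a description, with no p value. A p value is given for them only between the hairpins, and counts of members called against the control stand beside the share of all genes called.

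The cells were MDA-MB-468, an established triple-negative breast cancer line with amplified EGFR in which RB1 is known to be lost, and the RNA was polyadenylated. All 9 libraries came from cells infected with lentiviruses carrying pLKO.1 short hairpins, 3 with the BBOX1 hairpin sh6, 3 with the BBOX1 hairpin sh1 and 3 with a scrambled control. Infected cells were kept under a drug chosen by the vector's marker, for which the labels list puromycin, hygromycin and blasticidin. BBOX1 encodes gamma-butyrobetaine hydroxylase, which completes the synthesis of carnitine. Comparisons with the control ask how RNA levels differ once BBOX1 is depleted. It is depleted with both hairpins, so sh6 against sh1 compares the hairpins and does not test depletion. The labels name triplicates without saying that they were separate cultures, so errors and p values cover the variation among libraries, part or all of which may be technical. The protocol gives target sequences for hairpins named sh1 and sh2, and no label says which sequence sh6 carries. The stated target of sh1, shown because BBOX1 (chromosome 11) is the gene depleted with both hairpins, reads 5′ to 3′ as follows.
BBOX1 sh1: cctctacctttgtggacttta

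Recovered depth was 15741726 to 19755901 reads per library, and replicate libraries correlated at r of 0.995 to 0.998 across genes, which are not independent replicates. BBOX1 had a normalised count of 601 ± 18.99 with sh6, 333 ± 11.53 with sh1 and 2616 ± 226 in the control (SD, n = 3 each), which is 22.99% and 12.7% of the control mean. All 7 epithelial and line markers, among them EGFR and the keratin KRT18, were well above the testing limit. Of 2 markers listed as low, the progesterone receptor PGR was at 0 in every library. The other, the oestrogen receptor ESR1, passed the testing limit. Its normalised count was 96.9 to 116 with sh6, 226 to 255 with sh1 and 211 to 253 in the control. The summed normalised count of 4 endothelial markers was 88.4 to 111 with sh6, 86.2 to 116 with sh1 and 237 to 267 in the control. That of 4 leucocyte markers was 143 to 151 with sh6, 86.5 to 96.6 with sh1 and 200 to 230 in the control, and that of 6 fibroblast markers was 313 to 395, 286 to 352 and 324 to 444. A single gene of each of these 3 lists (KDR, CD68 and COL1A1) passed the testing limit, CD3E, PTPRC and VWF were at or near 0, and the part of these signals in the results was not tested. The endothelial marker PECAM1, under that limit, had 5.603 ± 3.13 counts with sh6, 6.03 ± 1.66 with sh1 and 24.6 ± 3.89 in the control (SD, n = 3 each), with hairpin libraries all below the control ones. Other markers under the limit were mixed. Endothelial CDH5 had 4.78 ± 1.43, 5.69 ± 2.01 and 3.63 ± 0.855 counts in the same order, with overlap. Leucocyte ITGAM had 12.8 ± 0.989, 9.05 ± 3.94 and 4.31 ± 1.45, its sh6 libraries all above the control ones. Leucocyte PTPRC went the other way, at 0.319 ± 0.552, 3.39 ± 2.15 and 3.53 ± 1.48, its sh6 libraries all below the control ones. Fibroblast COL3A1 had 1.32 ± 0.436, 0.335 ± 0.58 and 2.26 ± 1.09, its sh1 libraries all below the control ones. In bulk RNA, fewer cells of a type and less RNA per cell cannot be told apart.

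In textbook terms, D cyclins accumulate under growth signals and bind CDK4 or CDK6. The active complexes phosphorylate the pocket proteins, RB1 itself, p107 (RBL1) and p130 (RBL2), which otherwise hold E2F transcription factors in check. CDKN2A encodes p16, which blocks CDK4 and CDK6 directly, and in another reading frame ARF, which stabilises p53. CDKN1B encodes p27, which inhibits CDK2 complexes and is also bound by cyclin D complexes. Where RB1 is lost, the link from cyclin D to RB1 is cut, and high CDKN2A is well known in such cells.

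The pocket protein genes RBL1 and RBL2 had the largest differences between the hairpins among the 8 members in the fit, and the 250 bases before a RefSeq start site of each (GRCh38.p14, for RBL2 the upstream of 2) are shown for that reason. Capitals mark matches to an E2F motif (TTTNNCGC), a GC box (GGGCGG), a CRE core (ACGTCA), an AP-1 motif (TGANTCA) or a TATA box (TATAAA), each searched on both strands. RBL1 lies on the minus strand of chromosome 20 (chr20:37095998-37096247) and RBL2 on the plus strand of chromosome 16 (chr16:53434221-53434470).
RBL1: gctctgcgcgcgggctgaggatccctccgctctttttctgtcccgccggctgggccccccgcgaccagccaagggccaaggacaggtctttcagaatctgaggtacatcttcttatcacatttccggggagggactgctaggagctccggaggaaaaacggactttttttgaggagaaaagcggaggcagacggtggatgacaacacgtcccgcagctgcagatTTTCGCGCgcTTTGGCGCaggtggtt
RBL2: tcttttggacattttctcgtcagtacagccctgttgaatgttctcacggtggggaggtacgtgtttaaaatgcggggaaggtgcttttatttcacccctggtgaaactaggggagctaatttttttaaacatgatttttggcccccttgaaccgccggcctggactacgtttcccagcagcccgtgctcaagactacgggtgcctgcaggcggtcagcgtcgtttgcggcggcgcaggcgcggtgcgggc
RBL1 held 2 E2F matches, starting 26 and 16 bases before the start site, and RBL2 held none of the 5 motifs in this window. Of 35116 windows of this length in the same table, 5.92% held the E2F motif, 42.6% the GC box, 7.10% the CRE core, 6.57% the AP-1 motif and 10.7% the TATA box. A match in these letters is a description and does not show a bound site.

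CCND1 was higher with both hairpins than in the control, by the largest margin of these genes. Its normalised count was 5564, 5681 and 5947 with sh6, 5289, 4789 and 5184 with sh1, and 1229, 1215 and 1383 in the control. All 6 hairpin libraries lay far above all 3 control libraries, and the groups did not overlap. Mean counts were 4.49 times the control with sh6 and 3.99 times with sh1, with differences of the deposited log2 values of 2.11 (SE 0.0567) and 1.94 (SE 0.0567). Among the 13165 genes tested, 44 had a larger absolute difference with sh6 and 26 had a larger one with sh1. CCND1 was slightly higher with sh6 than with sh1, by 0.17 on the log2 scale (SE 0.0567, limma adjusted p = 0.0106, 95% interval 0.05 to 0.29). That call was lost without sh6 replicate 3 (adjusted p = 0.0558), without sh1 replicate 2 (adjusted p = 0.0891) and after quantile normalisation (log2 difference 0.03, adjusted p = 0.695).

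CCND3, which encodes a broadly expressed D cyclin, was also higher with both hairpins but by far less. It stood at 1982, 1804 and 1748 with sh6, 1716, 1773 and 1697 with sh1, and 1416, 1247 and 1347 in the control. Again no hairpin library reached down to the control range, while the ranges of sh6 and sh1 overlapped. Mean counts were 1.38 times the control with sh6 and 1.29 times with sh1, and sh6 minus sh1 was 0.09 on the log2 scale (adjusted p = 0.202, 95% interval -0.03 to 0.21). CCND2 had 0 recovered reads in all 9 libraries, which allows up to 3 reads in each and covers counting error only.

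**Figure D1:**
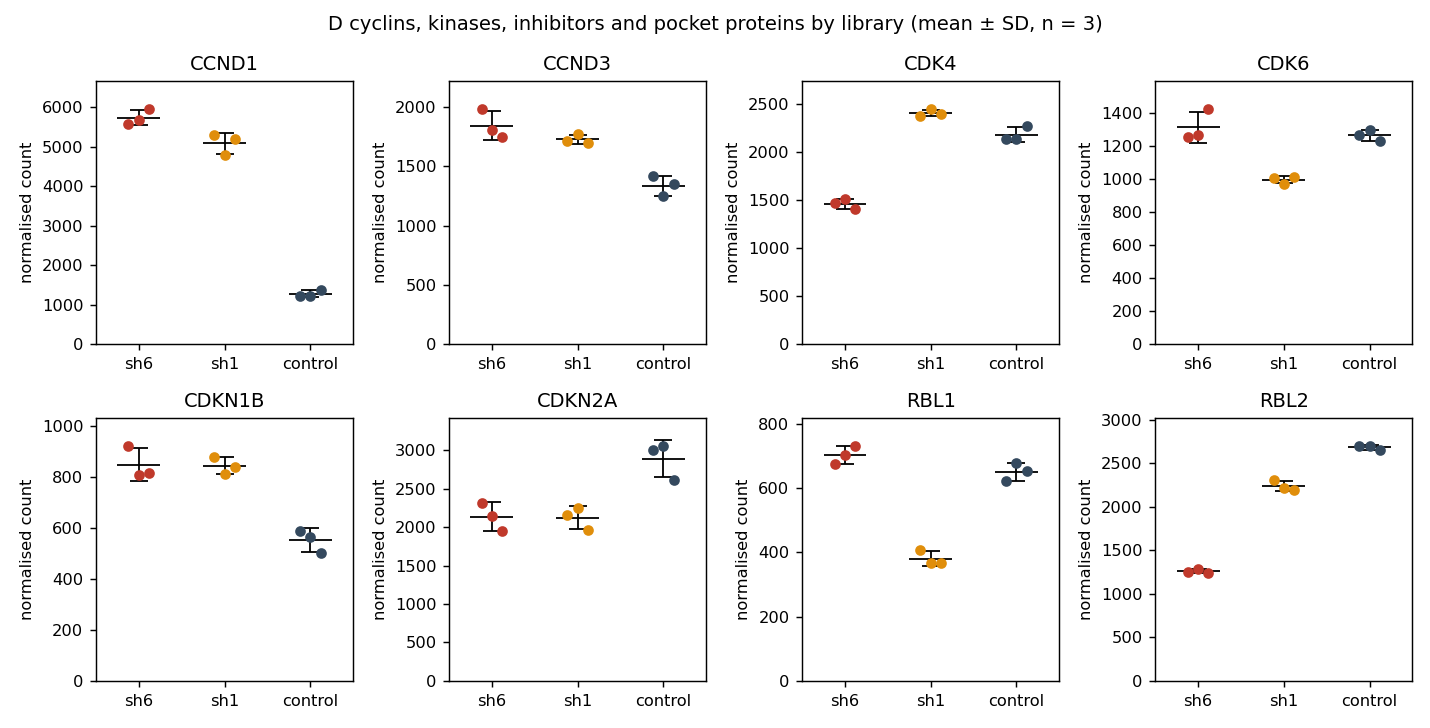
Normalised count (y axis, from 0) of the 8 members with enough reads, by hairpin (x axis: sh6, sh1, control). Points are libraries, bars are mean ± SD (n = 3). CCND1, CCND3 and CDKN1B lie above the control with both hairpins and CDKN2A below it, while CDK4, CDK6, RBL1 and RBL2 differ between sh6 and sh1.

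The make-up of the D cyclin pool differed accordingly. Levels of different genes are compared per kb of merged annotated exons (GENCODE release 29, GRCh38). On that scale CCND1 made up 78.9% ± 1.62 of the D cyclin counts with sh6, 77.9% ± 1.28 with sh1 and 53.4% ± 2.14 in the control (SD, n = 3 each). The summed D cyclin level was 1504 ± 24.6 normalised counts per kb with sh6, 1351 ± 48.6 with sh1 and 495 ± 26.2 in the control. The 3 groups did not overlap in that sum. Taking the longest transcript as the length in place of merged exons gave CCND1 shares of 63.3%, 62.0% and 34.7%, so that CCND3 was then the larger of these cyclins in the control, and the higher CCND1 share with the hairpins held with either length.

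The kinase CDK4, a partner of all D cyclins, was lower with sh6 than with sh1 or in the control. Its normalised count was 1468, 1508 and 1407 with sh6, 2378, 2444 and 2398 with sh1, and 2138, 2133 and 2270 in the control. The 3 groups were separate, with sh6 lowest and sh1 highest. Relative to the control mean it was at 0.67 with sh6 and 1.10 with sh1. Between the hairpins CDK4 was lower with sh6 by a log2 difference of -0.70 (SE 0.0538, adjusted p = 1.9e-12, 95% interval -0.81 to -0.59), or 1.65-fold in counts. CDK4 shares 1369 exonic bases with TSPAN31 on the other strand, which encodes a membrane protein, and the labels do not say whether counting used strand. TSPAN31 itself had 145 ± 20.9 counts with sh6, 203 ± 11.4 with sh1 and 212 ± 9.59 in the control (SD, n = 3 each).

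CDK6, the second kinase of D cyclins, differed between the hairpins in the other direction. It stood at 1252, 1264 and 1421 with sh6, 1007, 969 and 1011 with sh1, and 1263, 1295 and 1229 in the control. The sh1 libraries lay below all others, and the sh6 and control ranges overlapped. CDK6 was higher with sh6 than with sh1 by 0.38 on the log2 scale (SE 0.0598, adjusted p = 2.9e-06, 95% interval 0.25 to 0.50). Relative to the control mean it was at 1.04 with sh6 and 0.789 with sh1. Per kb, CDK4 was the larger of the kinases in every library, at 81.1% ± 1.60 of their sum with sh6, 90.3% ± 0.320 with sh1 and 86.97% ± 0.673 in the control (SD, n = 3 each).

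The D cyclin sum divided by the sum of CDK4 and CDK6, all per kb, was 2.65 ± 0.0846 with sh6, 1.61 ± 0.0744 with sh1 and 0.625 ± 0.0226 in the control (SD, n = 3 each). Thus D cyclin mRNA was below kinase mRNA in the control libraries and above it in all 6 hairpin libraries. The higher ratio with sh6 than with sh1 combined a D cyclin sum of 1504 against 1351 with a kinase sum of 568 ± 9.86 against 841 ± 8.87 counts per kb. With the longest transcript as the length the same ratios were 2.57, 1.53 and 0.737.

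**Figure D2:**
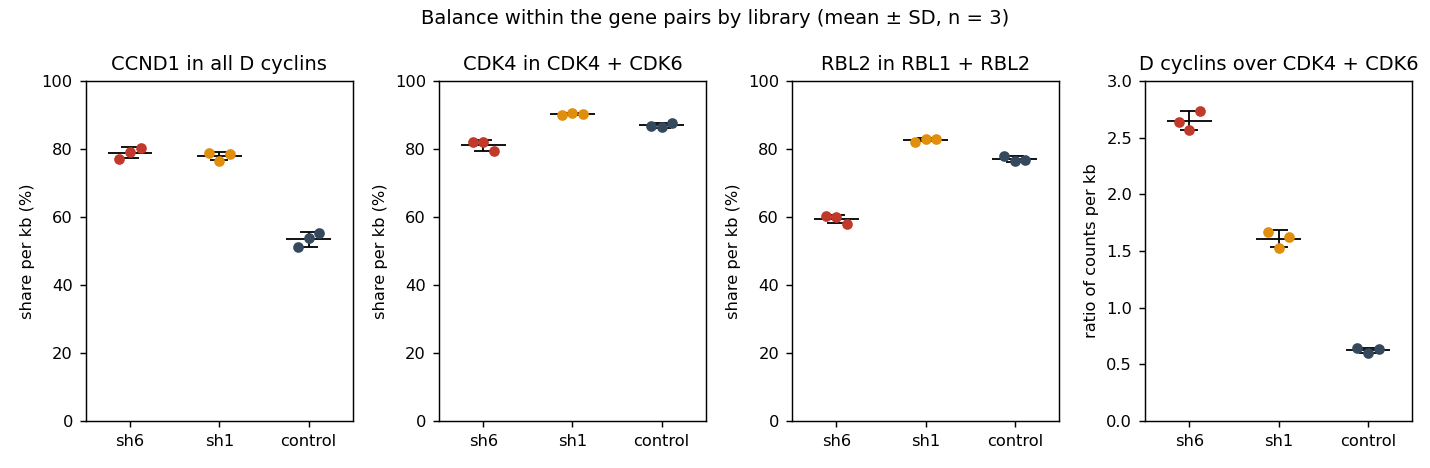
Balance within gene pairs by library, from normalised counts per kb (x axis: sh6, sh1, control; bars are mean ± SD, n = 3). The first 3 panels give a share in percent, and the last gives the D cyclin sum over the CDK4 and CDK6 sum, which was 2.65, 1.61 and 0.625. The RBL2 share was lowest with sh6.

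The inhibitor gene CDKN1B was higher with both hairpins to nearly the same extent. Its normalised count was 923, 810 and 817 with sh6, 881, 813 and 842 with sh1, and 591, 567 and 502 in the control. Every hairpin library was above every control library, and the hairpin groups overlapped fully. That is 1.54 times the control mean with sh6 and 1.53 times with sh1. The difference between sh6 and sh1 was 0.01 on the log2 scale, with a 95% interval of -0.13 to 0.15 (adjusted p = 0.951).

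CDKN2A was lower with both hairpins, yet it remained among the highest of these genes. It had 2318, 2145 and 1946 counts with sh6, 2161, 2254 and 1960 with sh1, and 3006, 3058 and 2614 in the control. No hairpin library reached the lowest control library. The ratio of means was 0.74 with sh6 and 0.73 with sh1, and sh6 minus sh1 was 0.01 on the log2 scale (adjusted p = 0.943, 95% interval -0.13 to 0.14). The table gives 1 value for the whole gene, so transcripts for p16 and for ARF cannot be told apart. CDKN2A also shares 341 exonic bases with its antisense neighbour CDKN2B-AS1, which had at most 76.3 ± 4.85 counts in any group (control, SD, n = 3).

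RB1, the retinoblastoma gene on chromosome 13, had almost no reads. Recovered reads were 4, 8 and 5 with sh6, 8, 6 and 13 with sh1, and 10, 7 and 13 in the control. The totals of these libraries are 15741726 reads or more, the groups overlapped, and no difference between groups could be detected at this depth. Fitted without the filter on low values, sh6 minus sh1 was -0.15 on the log2 scale (SE 0.107, adjusted p = 0.286). The genes around RB1 divided into those with ordinary levels and those with almost none. Upstream, and given in order of start, SUCLA2 had 372 to 605 reads per library, MED4 259 to 436 and ITM2B 2156 to 4199. Inside the annotated span of RB1 (48303726 to 48599436, GRCh38), the receptor gene LPAR6 had 0 reads in all 9 libraries and RCBTB2 had 1 to 7. The low values thus covered RB1 and the 2 protein-coding genes annotated within it, the other genes there not being analysed here, and did not extend to ITM2B, which ends at 48270357. No gene beyond the span was looked up on the other side.

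**Figure D3:**
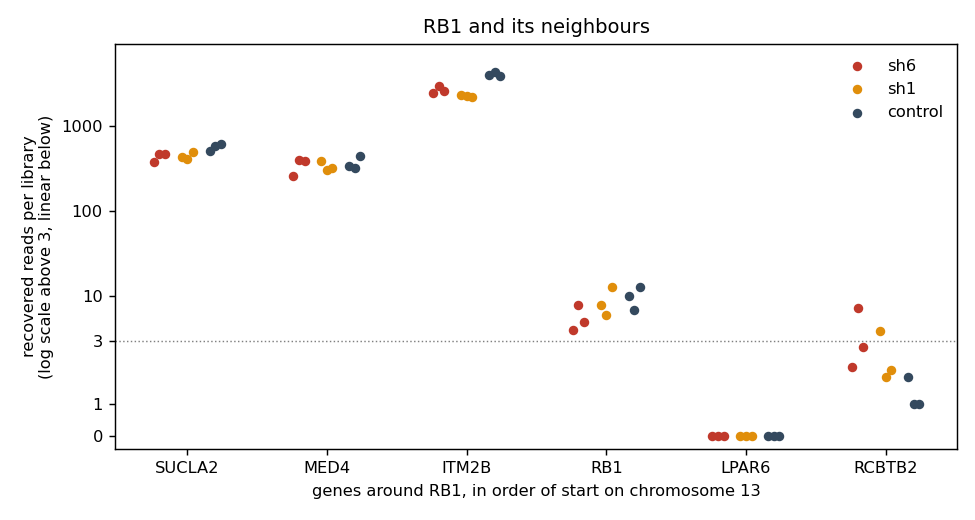
Recovered reads per library (y axis, logarithmic above 3 and linear below, dotted line at 3 reads) for RB1 and its listed neighbours in order of start on chromosome 13. Each point is a library, coloured by hairpin, with sh6, sh1 and control from left to right. RB1, LPAR6 and RCBTB2 lie at 13 reads or fewer, and the 3 upstream genes at 259 or more.

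RBL1 and RBL2, the pocket protein genes that this line still expresses, differed between the hairpins in opposite directions. RBL1 had 675, 704 and 731 counts with sh6, 407, 368 and 367 with sh1, and 621, 677 and 654 in the control. The sh1 libraries were lowest and separate, while the sh6 and control ranges overlapped. RBL1 was higher with sh6 than with sh1 by 0.79 on the log2 scale (SE 0.0672, adjusted p = 1.6e-11, 95% interval 0.65 to 0.93). Against the control mean it was at 1.08 with sh6 and 0.585 with sh1. This is the gene whose promoter, shown above, carries adjoining E2F motifs.

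RBL2 had 1256, 1291 and 1238 counts with sh6, 2307, 2217 and 2193 with sh1, and 2693, 2699 and 2652 in the control. The 3 groups were far apart, with sh6 lowest. RBL2 was lower with sh6 than with sh1 by a log2 difference of -0.80 (SE 0.0527, adjusted p = 4.9e-14, 95% interval -0.90 to -0.69). Against the control mean it was at 0.47 with sh6 and 0.835 with sh1. RBL2 shares 610 exonic bases with AKTIP, a gene on the other strand whose product binds the kinase AKT. AKTIP had 715 ± 65.8 counts with sh6, 1272 ± 20.6 with sh1 and 1482 ± 99.4 in the control (SD, n = 3 each), or 48.2% and 85.9% of the control mean, so reads of the pair may be mixed and this was not tested.

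Per kb, RBL2 made up 59.3% ± 1.23 of the RBL1 and RBL2 sum with sh6, 82.7% ± 0.471 with sh1 and 77.0% ± 0.786 in the control (SD, n = 3 each). The sum itself was lower with both hairpins, at 290 ± 5.00 counts per kb with sh6, 370 ± 12.01 with sh1 and 476 ± 5.89 in the control.

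Across the set, 6 of the 8 members in the fit were called against the control with sh6, where 67.8% of all genes were called, and 8 of 8 with sh1, where 58.9% were. At an adjusted p under 0.01 these were 6 with sh6 (58.4% of all genes) and 7 with sh1 (48.5%). Groups did not overlap for 3 higher and 3 lower members with sh6, against 68.4% of all genes in either direction, 34.6% higher and 33.9% lower. With sh1 it was 4 higher and 4 lower, against 64.1%, 31.7% and 32.4% of all genes. CCND1, CCND3 and CDKN1B were called higher and CDKN2A and RBL2 lower with both hairpins, as were 18.9% and 19.4% of all genes, and CDK4 was called in opposite directions, as were 6.4%. These contrasts include the one by which CCND1 was known, and nothing is read from the counts. With sh6 against sh1, 5 of the 8 were called at an adjusted p under 0.05, close to the 59.7% of all genes called. CCND1, CDK6 and RBL1 were the 3 higher with sh6, and CDK4 and RBL2 the 2 lower. Under 0.01 it was 4, against 49.4% of all genes. The same 3 and 2 members had groups that did not overlap, against 65.3% of all genes, 33.8% higher and 31.6% lower. The median absolute log2 difference between the hairpins was 0.27 over these 8 members and 0.22 over all genes tested.

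**Figure D4:**
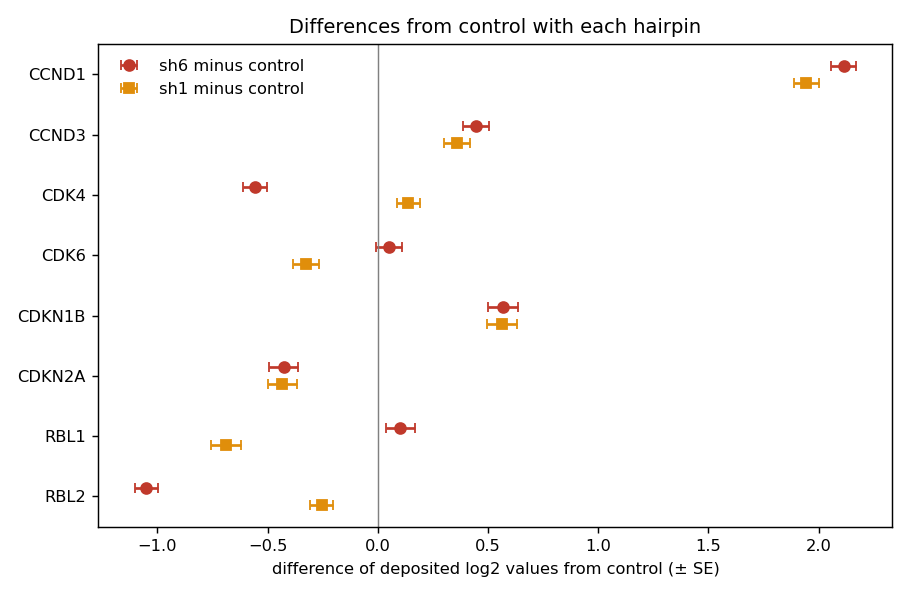
Difference of the deposited log2 values from the control (x axis, ± SE) for the 8 members in the fit, with sh6 as circles above and sh1 as squares below. CCND1 stands at 2.11 and 1.94, CDKN1B at 0.57 and 0.56, and CDKN2A at -0.43 with either hairpin. CDK4 stands at -0.56 with sh6 and 0.14 with sh1, and RBL2 at -1.05 and -0.25.

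In order of level per kb of merged exons, CCND1 ranked first with sh6 and with sh1, and behind CDK4, CDKN2A and RBL2 in the control. With sh6 it was followed by CDKN2A and CDK4, whose ranges overlapped, then CCND3 and CDKN1B, which also overlapped, then RBL2, RBL1 and CDK6, the last pair overlapping. With sh1 it was followed by CDK4, CDKN2A, then RBL2, CDKN1B and CCND3, neighbours that overlapped, then CDK6 and RBL1. In the control CDK4 and CDKN2A, which overlapped, were followed by RBL2, CCND1, CCND3 and CDKN1B, each separate from the next, then RBL1 and CDK6, which overlapped. RB1, at a mean of 0.875 counts per kb with sh6, and CCND2, at 0, came last in all groups. By the longest transcript, CDKN2A ranked first in every group.

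The genes whose pattern over the 9 libraries was most like that of CCND1 were GAS6, CPA4, BMP2, AKR7A2 and INA. Likeness was the root mean square difference of log2 values centred on each gene's own mean, and ran from 0.14 for GAS6 to 0.23 for INA among 13164 genes compared. GAS6, a ligand of TAM receptor kinases, had 183 ± 20.3 counts with sh6, 161 ± 13.97 with sh1 and 16.5 ± 1.75 in the control. Its control level was near the testing limit of 16.2, where the log2 values shrink differences. In counts its rise was therefore larger than that of CCND1, and its rank holds for the log2 scale only. BMP2, a secreted growth factor, had 569 ± 39.7, 548 ± 31.8 and 135 ± 34.8 counts in the same order (SD, n = 3 each).

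Other genes of the pathway were taken from 9 lists that hold 77 genes in all, 75 of which entered the fit. Of these, 35 rose and 18 fell with sh6 against the control, where 34.2% of all genes were called higher and 33.6% lower. With sh1, 23 rose and 29 fell, where 29.0% of all genes were called higher and 30.0% lower. With both hairpins 18 of the 75 rose, 12 fell and 8 were called in opposite directions, against 18.9%, 19.4% and 6.4% of all genes. Between the hairpins 38 were higher and 17 lower with sh6, where 30.8% of all genes were called higher and 28.9% lower. The lists are short, and nothing is read from the counts of each list given below.

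Among the other inhibitors of cyclin-dependent kinases, CDKN2B, which encodes p15, a close relative of p16 beside CDKN2A on chromosome 9, fell with both hairpins. It had 346, 369 and 320 counts with sh6, 516, 484 and 515 with sh1, and 880, 861 and 896 in the control, with no overlap between groups. That is 2.55-fold lower with sh6 (adjusted p = 3.9e-16) and 1.74-fold lower with sh1 (adjusted p = 8.8e-11). CDKN1A, the p53-induced inhibitor p21, moved in opposite directions, with 894, 808 and 785 counts with sh6, 1597, 1600 and 1504 with sh1, and 1240, 1211 and 1171 in the control. Its log2 change was -0.51 with sh6 (adjusted p = 8.8e-09) and 0.36 with sh1 (adjusted p = 6.3e-06). Of these 5 inhibitor genes, 3 fell with sh6 and none rose, and 2 rose and 1 fell with sh1. Beside these stand 34.2% of all genes called higher and 33.6% lower with sh6, and 29.0% and 30.0% with sh1. At the CDKN2A locus the other neighbours were not alike: CDKN2B-AS1 fell with sh6 (log2 change -0.46, adjusted p = 0.00011) but was not called with sh1 (-0.13, adjusted p = 0.246), and MTAP, on the other side, was at 0.16 with sh6 (adjusted p = 0.0215, but 0.0964 without sh6 replicate 3 and 0.1 without control replicate 2) and 0.11 with sh1 (adjusted p = 0.136). DMRTA1 was called in opposite directions, at 0.26 with sh6 (adjusted p = 0.0301) and -0.26 with sh1 (adjusted p = 0.0331), and lost each of these calls when single libraries were left out.

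Downstream of the kinases, 6 of the 10 E2F and DP genes rose and 2 fell with sh6, and 5 rose and 5 fell with sh1. With both hairpins 4 rose, 1 fell and 3 were called in opposite directions. Shares of all genes were 34.2% higher and 33.6% lower with sh6, and 29.0% higher and 30.0% lower with sh1. With both they were 18.9% higher, 19.4% lower and 6.4% opposite. E2F1, an activator, rose 1.41-fold with sh6 (adjusted p = 2.9e-07) and 1.86-fold with sh1 (adjusted p = 1.9e-12). TFDP1, the common partner of E2F proteins, rose by 0.52 and 0.58 on the log2 scale, and the repressor E2F7 rose 2.09-fold and 1.24-fold. E2F6, a repressor that acts without pocket proteins, rose 1.79-fold with sh6 and 1.19-fold with sh1. E2F3, an activator, and E2F5, a known partner of p130, rose with sh6 (log2 change 0.46 and 0.45) and fell with sh1 (-0.20 and -0.36). E2F4, the main E2F bound by p107 and p130 in resting cells, fell with sh6 (-0.40, adjusted p = 1.8e-06) and rose with sh1 (0.19, adjusted p = 0.0132). With sh1, the E2F6 call was lost without sh1 replicate 3 (adjusted p = 0.0815) or control replicate 1 (adjusted p = 0.154), and the E2F3 call without control replicate 1 (adjusted p = 0.0709).

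Of 16 G1/S targets of E2F, 9 rose and none fell with sh6, while 3 rose and 6 fell with sh1. Over all genes 34.2% were called higher and 33.6% lower with sh6, and 29.0% and 30.0% with sh1. The helicase subunit MCM3 rose 1.46-fold with sh6 and 1.34-fold with sh1, and the replication factor CDC45 rose 1.31-fold with either. The thymidine kinase TK1 rose 1.20-fold with sh6 (adjusted p = 0.00048) and fell 1.24-fold with sh1 (adjusted p = 0.00012), and the origin factor CDC6 likewise had log2 changes of 0.18 and -0.16, the call with sh1 being lost without sh1 replicate 2 (adjusted p = 0.0629). With sh6 against sh1, 11 of the 16 were higher and 1 was lower, where 30.8% of all genes were called higher and 28.9% lower. In the MuvB complex, which joins p107 and p130 to repress cell-cycle genes, the histone-binding subunit RBBP4 fell 1.27-fold with sh6 and 2.03-fold with sh1. MYBL2, which replaces the pocket proteins on MuvB as cells enter S phase, rose 1.79-fold with sh6 (adjusted p = 3.2e-14) and 1.10-fold with sh1 (adjusted p = 0.0415), a call with sh1 that was lost without sh1 replicate 2 or 3 or control replicate 1 or 2 (adjusted p = 0.0658 to 0.186). The mitotic partner FOXM1 rose 1.15-fold and 1.41-fold.

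**Figure D5:**
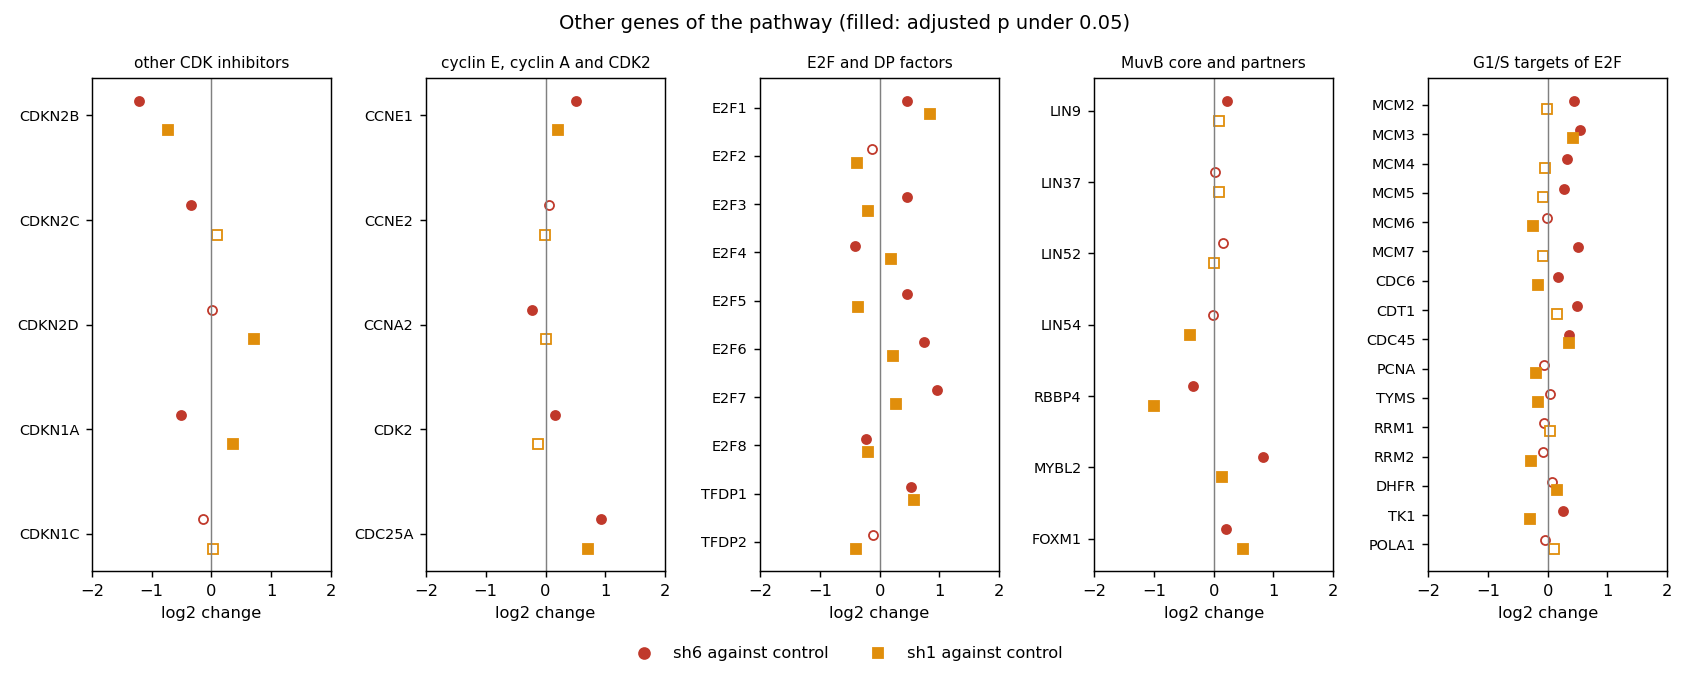
Log2 change against the control (x axis) of other genes of the pathway in 5 lists, with sh6 as circles and sh1 as squares, filled where limma's adjusted p was under 0.05. CDKN2B lies below 0 with both hairpins, and 9 of the 16 G1/S targets are filled right of 0 with sh6, against 3 with sh1. Over all genes 34.2% were called higher with sh6 and 29.0% with sh1.

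Of 5 tested genes in the list for cyclin E, cyclin A and CDK2, 3 rose and 1 fell with sh6, and 2 rose and none fell with sh1. The shares of all genes called higher and lower were 34.2% and 33.6% with sh6, and 29.0% and 30.0% with sh1. CCNE1 rose 1.48-fold with sh6 and 1.18-fold with sh1, and the phosphatase gene CDC25A, whose product activates CDK2, rose 2.06-fold and 1.73-fold. CCNA2, which encodes cyclin A2, fell with sh6 (log2 change -0.23, adjusted p = 0.00054), and CCNE2 was not called with either hairpin. The CCNE1 call with sh1 was lost without control replicate 1 (adjusted p = 0.0712). The CDK-activating kinase split within itself: its cyclin CCNH rose 1.95-fold and 2.09-fold, its kinase CDK7 fell 1.28-fold and 1.44-fold, and MNAT1 was not called with either. The chaperones that fold CDK4 all rose with sh6, CDC37 by 1.54-fold (adjusted p = 4.3e-12) and HSP90AA1 by 1.41-fold, and none of the 3 was called with sh1 (CDC37 log2 change 0.06, adjusted p = 0.285). CDK4 itself was lower with sh6, as given above.

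Of 13 genes for the turnover of D cyclins and p27, 7 rose and 4 fell with sh6, and 6 rose and 5 fell with sh1. Among all genes, 34.2% were called higher and 33.6% lower with sh6, and 29.0% and 30.0% with sh1. CRYAB, a small heat shock protein that works with FBXO4 in cyclin D1 turnover, fell 4.90-fold with sh6 and 1.45-fold with sh1. Its normalised count was 579, 636 and 585 with sh6, 2052, 2119 and 1912 with sh1, and 2859, 3049 and 2910 in the control. FBXO4 itself fell with sh6 (log2 change -0.66, adjusted p = 8.3e-07) and was not called with sh1 (0.11, adjusted p = 0.365). Its counts were low, at 49.1 ± 11.3 with sh6 and 104 ± 7.19 in the control (SD, n = 3 each). In counts the fall was 2.13-fold, larger than on the log2 scale, which shrinks differences at low counts. AMBRA1, the substrate receptor for all D cyclins, went in opposite directions, with log2 changes of 0.22 and -0.26. SKP2, which marks p27 for degradation, rose 1.48-fold and 1.30-fold, RNF123, part of another ligase for p27, rose by 0.43 and 0.42 on the log2 scale, and SKP1 fell 1.30-fold and 1.74-fold.

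Of 13 tested genes for transcription factors known to act on the CCND1 promoter, 3 rose and 6 fell with sh6, and 2 rose and 9 fell with sh1. For all genes the shares higher and lower were 34.2% and 33.6% with sh6, and 29.0% and 30.0% with sh1. The AP-1 subunit FOSL1 rose 7.63-fold with sh6 and 5.14-fold with sh1, to 186 ± 7.17 and 126 ± 16.0 counts, against 24.4 ± 6.30 in the control (SD, n = 3 each). The AP-1 genes FOS and JUNB fell, FOS 4.88-fold and 3.41-fold and JUNB 2.25-fold and 1.61-fold, while JUN rose by 0.25 (adjusted p = 0.00356) and 0.45 (adjusted p = 4.4e-06) on the log2 scale, and the immediate early gene EGR1 fell 1.79-fold and 1.45-fold. TCF7L2, a nuclear partner of beta-catenin, rose with sh6 (log2 change 0.63) and fell with sh1 (-0.20), the call with sh1 being lost without sh1 replicate 3 (adjusted p = 0.155) or control replicate 1 (adjusted p = 0.0685).

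None of the 7 tested neighbours of CCND1 on chromosome 11 had a rise near its size, the largest being 0.48 on the log2 scale. ORAOV1, which shares 497 exonic bases with CCND1 on the other strand, had 277 ± 25.8 counts with sh6, 366 ± 18.1 with sh1 and 270 ± 5.46 in the control (SD, n = 3 each). MYEOV had 372, 362 and 363 counts with sh6, 1517, 1633 and 1548 with sh1, and 1280, 1108 and 1457 in the control. It thus fell with sh6 (log2 change -1.64, adjusted p = 7e-19) and rose with sh1 (0.28, adjusted p = 0.00096). ANO1, a chloride channel gene, was likewise at -0.40 and 0.18, while TPCN2, PPFIA1 and CTTN rose by 0.17 to 0.48 on the log2 scale with both. With sh1, the calls of ANO1, TPCN2 and CTTN were each lost without sh1 replicate 3 (adjusted p = 0.14, 0.0932 and 0.0794), those of ANO1 and TPCN2 also without control replicate 1 (adjusted p = 0.12 and 0.0957), that of TPCN2 without sh1 replicate 2 (adjusted p = 0.061) and that of CTTN without control replicate 2 (adjusted p = 0.0895). FADD rose with sh6 (0.33, adjusted p = 9.3e-05) and was at 0.14 with sh1 (adjusted p = 0.0739; 0.00466 without control replicate 3). The growth factor genes FGF3 and FGF4 had 0 reads in every library and FGF19 had at most 2.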

How the data were processed

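RNA of 9 libraries (3 groups of 3, from the sample titles) was sequenced in paired reads of 100 bases, per the labels. Tools named, per the submitters' processing notes, are STAR, Salmon, cutadapt and DESeq2, with the build hg19. The authors deposited variance-stabilised log2 values, called batch-corrected in the table's name, with a floor of 5.02, at which 8075 genes lie in every sample. The authors' deposited table also holds a log2 fold change and an adjusted p-value of an unstated comparison, which were not used. Normalised counts were obtained by inverting this transformation exactly. The worth of 1 read came from the steps of low values, of which 75.3% to 80.2% per library were whole within 0.05.

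Genes with a mean at least 1 above the floor (a normalised count of 16.2) were kept, 13165 of 27315. limma 3.58.1 (R 4.3.3) fitted the log2 values of all 9 libraries in 1 model of 3 groups, with a mean trend, two-sided, with Benjamini-Hochberg adjustment across the kept genes and calls under 0.05. Folds are ratios of mean normalised counts. On simulated sh1 against control data with 13001 genes, 97.96% of genes raised by 1 on the log2 scale and 80.0% of those lowered by 0.5 were recovered. A rise of 1 was fitted as 0.93 and a fall of 1 as -0.85. The simulation changed few genes, in 1 group and with a fixed spread. In the data 58.9% of genes were called with sh1, so these rates need not hold there. Of the symbols, 27 had been turned into dates. Named were the 10 members, BBOX1, per list up to 4 genes called with both hairpins alike and up to 2 called oppositely, the neighbours (some items are not reported here), and the 5 genes most like CCND1. CDC37, HSP90AA1, MNAT1, E2F4, FBXO4, CCNA2, CCNE2, JUN, CDKN2D, STAT3, MCM7, the overlapping genes TSPAN31 and AKTIP and the markers were named after their values were seen. The members and lists were chosen with earlier results of these data known. Positions and lengths are from GENCODE release 29, promoters from RefSeq (GRCh38.p14), neither on the authors' build. Alternatives were other filters, scales, weights, fits, a replicate block and leaving out each library. All other steps used Python 3.11.15 with matplotlib 3.10.9, pandas 2.3.3, numpy 2.4.6 and scipy 1.17.1.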

Additional observations from a re-analysis of the deposited data

Results flagged for a closer look

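Limits were a call by limma's test of sh6 against sh1 and a difference of at least 1.5-fold on the deposited log2 scale. By these, the effect of the hairpins differed between sh6 and sh1 for 13 of the genes that the naming rule picked. Among the members these were CDK4 (log2 difference -0.70), RBL1 (0.79) and RBL2 (-0.80). Among the inhibitors, E2F and MuvB genes they were CDKN1A (-0.87), E2F3 (0.67), E2F5 (0.82), E2F7 (0.68), RBBP4 (0.66) and MYBL2 (0.70). The others were CRYAB (-1.66), TCF7L2 (0.83), the CCND1 neighbour MYEOV (-1.93) and the depleted gene BBOX1 itself (0.75), which was lower with sh1. At the same limits 11.6% of all genes tested differed between the hairpins. The 13 cannot be set against that share. The naming rule picked some genes because they were called in opposite directions against the control, which favours a difference between the hairpins. The same limits were met by E2F4 (-0.59), FBXO4 (-0.76), AKTIP (-0.78), CDKN2D (-0.70), STAT3 (-0.75) and MCM7 (0.59), which were named after their values were seen. Of all these, CDK4, CDKN1A, E2F3, E2F4, E2F5, TCF7L2 and MYEOV were called on opposite sides of the control with the hairpins.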

How the results depend on the processing

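The log2 differences of the 8 members against the control were recomputed in 19 alternatives each. Their directions held except for CDK6 with sh6, which was not called and lay between -0.0044 and 0.0827. CCND1 ran from 2.08 to 2.17 with sh6 and from 1.91 to 2.06 with sh1. Between the hairpins, the calls of CDK4, CDK6, RBL1 and RBL2 held in all 19 alternatives. The CCND1 call was lost in 3 of them, and its adjusted p ran from 0.00216 to 0.695. The cause was not tested. The number of members called was 6 to 7 with sh6, 7 to 8 with sh1 and 4 to 5 between the hairpins. Calls of all genes ran from 8018 to 9572 with sh6, 7000 to 8784 with sh1 and 7087 to 8629 between the hairpins. Of the changes of named pathway genes, 46 values lost and 13 gained a call in single alternatives, and none reversed. With the longest transcript as the length, the CCND1 share moved to 63.3% with sh6, 62.0% with sh1 and 34.7% in the control. Leaving out single libraries gave shares of 78.1% to 79.7%, 77.5% to 78.7% and 52.5% to 54.6%.

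Whether the replicate numbers pair the samples is not known. Correlations of deviations ran from -0.13 to 0.18 for 9 same-numbered pairs and from -0.18 to 0.17 for 18 others. Of these, 3 same-numbered pairs and 2 others were over 0.1. The values are called batch-corrected, so a shared batch may have been removed, and the correlations cannot show that samples were unpaired. With a replicate block, 9049 genes were called with sh6, 7950 with sh1 and 8002 between the hairpins. Few or no reads limit RB1, CCND2, LPAR6 and RCBTB2. RB1 was not called when fitted without the filter, and CCND2 and LPAR6 had 0 reads in every library. RCBTB2, at 1 to 7 reads, had 3.99 ± 2.31 counts with sh6, 2.67 ± 1.19 with sh1 and 1.29 ± 0.569 in the control (SD, n = 3 each). Its sh6 and control groups did not overlap, and the difference was not tested.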
